A study of Mus musculus with 9 samples.

Results

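Ighm is the gene for the constant region of the immunoglobulin mu heavy chain, and its row was 1 of the 21883 gene rows measured in invariant natural killer T (iNKT) cells sorted from the mouse thymus. It was chosen from its own FPKM values in these libraries, which stood high among the immunoglobulin genes and higher in the Med23-deficient libraries. Its levels are therefore a description and carry no test. FPKM counts fragments per kilobase of exon, scaled to the mapped fragments of the library, so levels can be set side by side between genes.

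The 9 RNA-seq libraries came from C57BL/6 mice and fell into 3 groups of 3. WT stage 2 cells (CD24lo CD44hi NK1.1lo) and WT stage 3 cells (the NK1.1hi cells that follow) were sorted from wild-type mice labelled as 6 weeks old. Stage 2 cells were also sorted from mice in which floxed Med23, a subunit of the Mediator complex, was deleted by a Cre recombinase under the Cd4 promoter, which acts from the double-positive thymocyte stage and in all later cells of that origin. These mice carried the same strain label, and their age was not given in the labels. All cells were gated with a CD1d tetramer loaded with the lipid PBS57, which binds the invariant TCR.

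In B cells, Ighm RNA begins at a rearranged variable segment and is made into either the secreted or the membrane form of the mu chain by choice of the 3' exons. The mu chain reaches the surface together with a light chain (Igkc, Iglc1, Iglc2) and the signalling pair Cd79a and Cd79b. Transcription can also begin without a functional variable segment, at the enhancer in the intron between the joining segments and the mu exons. Such sterile mu transcripts are known from T lineage cells as well as from B cells. A gene-level row counts the mu exons of every one of these RNAs and does not tell them apart.

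Ighm (ENSMUSG00000076617) lies on the minus strand at chr12:113418558-113422730 of mm10. The GENCODE annotation of the same build gives it 2 transcripts that share the first 3 exons and the start of exon 4. The secreted form has 4 exons and 1493 bases, and the membrane form has 6 exons and 1698 bases. The sequences below show what the row measures, because the constant exon is common to both forms and the 2 ends are not. They are the first 120 bases of the CH1 exon (chr12:113422611-113422730), the coding tail found in the secreted form alone (chr12:113420870-113420928) and the first membrane exon (chr12:113418953-113419068), written 5' to 3' on the minus strand of GRCm38 and without capitals.
CH1 exon: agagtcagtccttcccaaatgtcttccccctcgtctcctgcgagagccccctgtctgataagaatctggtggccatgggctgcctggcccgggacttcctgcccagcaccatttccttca
secreted tail: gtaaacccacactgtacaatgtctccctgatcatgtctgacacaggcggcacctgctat
membrane exon M1: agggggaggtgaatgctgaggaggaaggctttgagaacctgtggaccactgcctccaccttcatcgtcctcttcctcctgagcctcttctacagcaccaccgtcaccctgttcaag

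Upstream of the CH1 exon, 4 short gene models annotated as microRNAs lay inside the intron that also holds the mu switch region, the repeat array at which class switching breaks the DNA. They were printed because they are the rows of the table closest to Ighm on its 5' side, and because their letters show what they overlap. Copies of GAGCT, a unit of the switch repeat, are in capitals.
Gm25747 (chr12:113424645-113424722): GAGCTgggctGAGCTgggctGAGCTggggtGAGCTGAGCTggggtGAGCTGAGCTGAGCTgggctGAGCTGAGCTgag
Gm24022, 70 bases (chr12:113424719-113424788): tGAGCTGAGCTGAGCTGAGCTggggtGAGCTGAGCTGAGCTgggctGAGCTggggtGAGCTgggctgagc
Gm24022, 60 bases (chr12:113424724-113424783): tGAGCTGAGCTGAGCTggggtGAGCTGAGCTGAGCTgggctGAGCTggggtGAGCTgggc
Gm22175 (chr12:113425150-113425227): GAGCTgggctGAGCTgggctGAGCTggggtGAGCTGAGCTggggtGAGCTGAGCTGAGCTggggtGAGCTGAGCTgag
The 4 models held 10, 9, 8 and 10 copies of GAGCT in the order printed. Among the 601 microRNA models of 60 to 78 bases in the annotation, 18.5% held at least 1 copy on either strand and 1.33% (8 models, these 4 included) held 8 or more. The 2 Gm24022 models overlap each other, and reads from such repeats cannot be placed with certainty, so each of the 4 levels is uncertain.

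The Ighm level in WT stage 2 cells was 31.19, 49.70 and 40.64 FPKM in replicates 1, 2 and 3. In WT stage 3 cells it was 55.10, 50.21 and 46.02 FPKM. In Med23-deficient stage 2 cells it was 104.14, 90.36 and 85.59 FPKM. The WT stages overlapped, and all 3 Med23-deficient libraries lay above all 6 WT libraries.

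The group means were 40.5 ± 9.26 FPKM (SD, n = 3) in WT stage 2, 50.4 ± 4.54 (SD, n = 3) in WT stage 3 and 93.4 ± 9.63 (SD, n = 3) in Med23-deficient stage 2. The order of the levels was thus WT stage 2, WT stage 3, Med23-deficient stage 2, and the first 2 did not differ beyond their spread. The Med23-deficient mean was 2.30 times the WT stage 2 mean and 1.85 times the WT stage 3 mean, and the WT stage 3 mean was 1.25 times the WT stage 2 mean. On the log2(FPKM + 1) scale, the differences from WT stage 2 were 0.33 for WT stage 3 and 1.20 for Med23-deficient stage 2. Both differences used the same 3 WT stage 2 libraries. In bulk samples, a change in the number of cells that hold an RNA and a change in the amount per cell cannot be told apart.

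Relative to other genes, Ighm was an abundant RNA in each library. Between 520 and 839 protein-coding genes had a higher FPKM in the WT stage 2 libraries, and between 414 and 456 in the WT stage 3 libraries. In the Med23-deficient libraries, 168 to 203 protein-coding genes stood above it.

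Setting Ighm against T cell receptor genes of the same library gave the same order of means. The Ighm level was 0.145 ± 0.0330 (SD, n = 3) of that of Trac, the TCR alpha constant gene, in WT stage 2, 0.150 ± 0.010 (SD, n = 3) in WT stage 3 and 0.257 ± 0.00910 (SD, n = 3) in Med23-deficient stage 2. Relative to Cd3e, a CD3 chain of the TCR complex, it was 0.326 ± 0.0635 (SD, n = 3), 0.389 ± 0.00993 (SD, n = 3) and 0.792 ± 0.0213 (SD, n = 3). On the Cd3e ratio the WT stages came apart narrowly, with 0.374 the highest value at stage 2 and 0.380 the lowest at stage 3. The Med23-deficient libraries stayed above every WT library on both ratios.

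**Figure D1:**
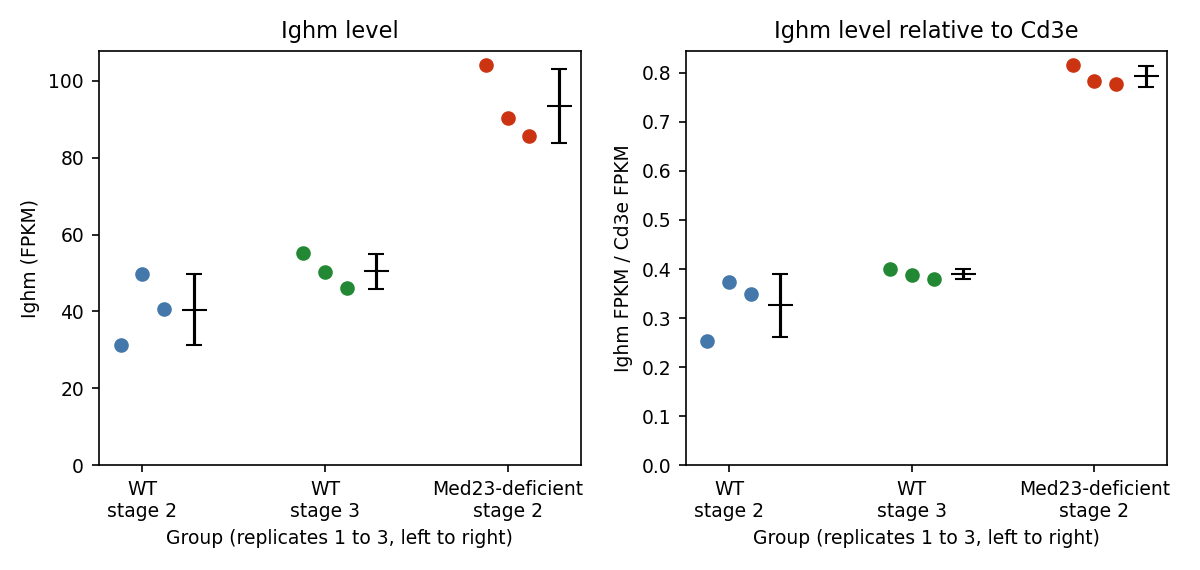
Ighm in FPKM (left) and as a ratio to Cd3e FPKM (right), both on linear axes from 0, with 1 point per library and the group mean ± SD beside the points. The 3 Med23-deficient stage 2 libraries sit between 85.59 and 104.14 FPKM, above the WT libraries, which reach 55.10.

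The libraries listed 15584 to 17333 genes above 0, and their read depth is unknown because the files give FPKM without counts. A single gene model, Gm23935, took 62.2% to 71.9% of the summed FPKM of a library. The targeted gene Med23 had levels of 4.80, 3.60 and 3.92 FPKM after its deletion, against 5.51, 5.15 and 6.74 in WT stage 2 and 7.14, 4.44 and 6.12 in WT stage 3. The Med23-deficient libraries lay below all WT stage 2 libraries and overlapped WT stage 3, and the row pools all exons, deleted or not. The T and NKT cell genes, the check of the sorted cell type, were above an FPKM of 1 in every library for all 16 of the list.

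The other immunoglobulin genes were at or near 0 in the libraries in which Ighm was abundant. Beside Ighm, 12 rows had an immunoglobulin gene type, of which 5 were constant, 4 variable and 3 joining genes. Of their 108 values, 93 were listed at 0, and 11 of the 12 rows were above 0 in 1 library alone. All 12 rows were above 0 in at least 1 library, and immunoglobulin genes without a row are not in these counts. An exact 0 in an FPKM table can also be a failed estimate, so these genes are described as listed at 0.

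Ighd, the delta constant gene that lies just 3' of Ighm and is spliced from the same primary transcript in mature B cells, was the exception. Each of the 3 WT stage 2 libraries listed it at 0. It stood at 0.34, 0.62 and 0.56 FPKM in WT stage 3. In Med23-deficient stage 2 it stood at 0, 0 and 0.38 FPKM. Its levels therefore did not follow the order of Ighm.

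The remaining 11 rows are named here after their values were seen. The kappa constant gene Igkc was at 0.62 FPKM in WT stage 3 replicate 3 and at 0 in the other libraries. The lambda constant genes Iglc1 and Iglc2 were at 0.84 and 0.51 FPKM in Med23-deficient replicate 3 and at 0 elsewhere. Light chain constant RNA was thus listed at 0 in 7 of the 9 libraries. Both libraries with a value were replicate 3 of their group. Replicate 3 listed the most genes above 0 in each group (16670, 17151 and 17333), and whether the zeros elsewhere reflect detection was not tested. Ighg2b, the constant gene of a switched isotype, reached 0.07 FPKM in WT stage 2 replicate 3. Variable genes were at most 2.58 FPKM, for Igkv1-110 in WT stage 3 replicate 2. The highest value of all these rows was 8.18 FPKM, for the joining segment Ighj4 in WT stage 2 replicate 2.

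Summed over the 12 rows, immunoglobulin RNA other than Ighm came to 0, 8.18 and 0.91 FPKM in WT stage 2. It came to 0.34, 3.20 and 4.05 FPKM in WT stage 3 and to 0, 0 and 1.90 FPKM in Med23-deficient stage 2. The sums overlapped between the groups, and 2 of the 3 Med23-deficient libraries were at 0.

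The receptor partners of the mu chain were likewise near 0. Cd79a was at 0.48 FPKM in WT stage 3 replicate 2 and listed at 0 in the other 8 libraries. Cd79b was at 0.50 FPKM in WT stage 2 replicate 2 and 0.29 in WT stage 3 replicate 3, and listed at 0 in the other 7. Both genes were at 0 in all 3 Med23-deficient libraries, in which Ighm was highest.

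Cd74, the invariant chain that loads MHC class II molecules and is abundant in B cells and other antigen-presenting cells, was low and variable. It stood at 5.56, 5.56 and 1.49 FPKM across WT stage 2, against 0, 0.83 and 1.31 FPKM in WT stage 3. In Med23-deficient stage 2 it stood at 0.06, 1.87 and 4.25 FPKM. Replicate 1 of that group thus joined the highest Ighm value to nearly the lowest Cd74 value, which is 1 library. Replicates 2 and 3 joined Cd74 values of 1.87 and 4.25 FPKM to Ighm values of 90.36 and 85.59. The relation of the 2 genes was not tested.

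Of a list of 20 B lineage genes, 14 had a row in the table used here. The summed level of the 14 rows ran from 9.78 to 11.33 FPKM in WT stage 2, from 1.5 to 1.69 in WT stage 3 and from 2.43 to 3.84 in Med23-deficient stage 2. The list was highest in WT stage 2, where Ighm was lowest, and both were higher in Med23-deficient stage 2 than in WT stage 3. Only Blk, Cd72 and Fcrl1 exceeded 1 FPKM in 3 or more libraries, and the other 11 rows never passed 0.92 FPKM. The summed level of those 11 rows was 0.48 to 2.55 FPKM in WT stage 2, 0.79 to 1.30 in WT stage 3 and 0.18 to 0.38 in Med23-deficient stage 2.

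Genes other than Ighm were tested with limma on log2(FPKM + 1), and calls needed a change of 2-fold or more with a nominal p no higher than 0.05, the thresholds of the study. By this rule 3.6% of 20689 genes were called between WT stage 3 and WT stage 2, and 1.67% at an adjusted p of at most 0.05. In the B lineage list, 2 of the 13 genes tested were called, both lower at stage 3, and both also passed the adjusted threshold. Cd22, which was not called, went the other way. It stood at 0.54, 0.49 and 0.23 FPKM in WT stage 3 and was listed at 0 in every WT stage 2 library. Its difference was 0.50 ± 0.10 (SE) on the log2(FPKM + 1) scale, with a limma adjusted p of 0.085. The median difference of the 13 genes was -0.07 against -0.01 over all genes on the log2(FPKM + 1) scale.

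Blk, a Src family kinase of B cells that also marks interleukin-17-producing NKT cells, stood at 6.76, 6.12 and 4.53 FPKM across WT stage 2, against 0.09, 0.22 and 0 in WT stage 3. The difference was -2.61 ± 0.25 (SE) on the log2(FPKM + 1) scale, with a limma adjusted p of 0.0146. Fcrl1, an Fc receptor-like protein of B cells, stood at 1.05, 1.78 and 2.14 FPKM across WT stage 2, against 0, 0 and 0.02 in WT stage 3. Its difference was -1.38 ± 0.20 (SE), with a limma adjusted p of 0.0402. Leaving out 1 library at a time kept both calls by fold and unadjusted p, while the limma adjusted p rose to as much as 0.0771 for Blk and 0.153 for Fcrl1. Neither gene passed the adjusted threshold without WT stage 2 replicate 3 or without any 1 of the WT stage 3 libraries, and Fcrl1 also failed it without WT stage 2 replicate 2.

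In the comparison of Med23-deficient with WT stage 2 cells, 2.11% of 20674 genes were called, and 0.213% at an adjusted p of at most 0.05. In the B lineage list, Blk was called lower and the other 10 genes tested were not called. The median difference of the 11 was -0.19 against -0.01 over all genes. Blk was listed at 0 in all 3 Med23-deficient libraries, a difference of -2.75 ± 0.25 (SE) on the log2(FPKM + 1) scale with a limma adjusted p of 0.0304. With any 1 library left out, Blk remained called and its limma adjusted p was 0.0941 to 0.136. Fcrl1 stood at 1.54, 1.62 and 1.53 FPKM there, within the range of WT stage 2. No B lineage gene was called higher in the group in which Ighm was highest, where 165 of the 20674 genes were called higher. The B lineage rows that never passed 0.92 FPKM could not reach a fold of 2 with a pseudocount of 1.

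Of 12 genes of plasma cells, the antibody-secreting cells in which the secreted mu form is made, 9 had a row, and the joining chain gene Jchain, Mzb1 and Tnfrsf17 had none in the table used here. Between the WT stages, 2 of the 9 were called, against 3.6% of all genes. They were Sdc1 and Irf4, both lower at stage 3. Sdc1, the plasma cell marker syndecan-1 that also marks interleukin-17-producing NKT cells, stood at 5.94, 4.49 and 5.84 FPKM in WT stage 2 and was at 0 in each WT stage 3 library. In Med23-deficient stage 2 it stood at 0, 0 and 0.03 FPKM, a difference of -2.66 ± 0.23 (SE) on the log2(FPKM + 1) scale with a limma adjusted p of 0.0304, and it was the 1 plasma cell gene called in that comparison. With any 1 library left out, that adjusted p was 0.0753 to 0.136. Irf4, a transcription factor of plasma cells and of activated T cells, stood at 7.04, 6.29 and 10.35 FPKM across WT stage 2, against 0.08, 1.01 and 0.52 in WT stage 3. The difference of Irf4 between the WT stages was -2.55 ± 0.32 (SE) on the log2(FPKM + 1) scale, with a limma adjusted p of 0.0286, which was 0.0662 to 0.112 with any 1 library left out. Xbp1, the factor that drives the secretory programme, lay between 6.03 and 13.76 FPKM over all 9 libraries and was not called in either comparison.

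All 10 MHC class II genes had a row, and 2 were called lower at WT stage 3 and none in Med23-deficient cells. The 4 rows that never passed 1 FPKM could not reach a fold of 2 with a pseudocount of 1. The shares called over all genes were 3.6% and 2.11%. Their summed level ran from 12.76 to 18.02 FPKM in WT stage 2, from 3.34 to 4.75 in WT stage 3 and from 6.5 to 13.82 in Med23-deficient stage 2. H2-DMa, part of the peptide exchange factor, stood at 8.34, 9.63 and 6.88 FPKM across WT stage 2, against 3.08, 1.47 and 1.62 in WT stage 3. Cd74 was the other, with a difference of -1.55 ± 0.52 (SE) and a limma adjusted p of 0.267. The Cd74 call was lost without WT stage 2 replicate 1, WT stage 2 replicate 2 or WT stage 3 replicate 1. Ciita, the master regulator of the class II genes, did not pass 0.26 FPKM in any library.

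Genes of other cells that a thymic sort could hold were low in most lists, the dendritic cell list excepted. The pre-B cell list had 5 rows of 8 genes and the germinal centre list 4 rows of 6, and none of them was called in either comparison. Among them, 1 pre-B cell row and 3 germinal centre rows never passed 1 FPKM. Such rows could not reach a fold of 2 with a pseudocount of 1. Over all genes, 3.6% and 2.11% were called. The summed pre-B cell level ran from 1.82 to 2.65 FPKM in WT stage 2, from 3.32 to 4.28 in WT stage 3 and from 0.69 to 2.7 in Med23-deficient stage 2. The genes of proteins that bind IgM (Fcmr, Pigr, Fcamr, Cd5l) had no row in the table used here. Of the dendritic cell list, 6 of 10 genes had a row, and they summed to 16.25 to 20.85 FPKM in WT stage 2, 27.2 to 53.17 in WT stage 3 and 5.29 to 8.67 in Med23-deficient stage 2. Ly6c2 and Ccr7 made up most of each sum, with values up to 53.17 and 12.09 FPKM, and the other 4 rows did not pass 0.56 FPKM. Ly6c2, which T and NKT cells also express, was called higher at WT stage 3 and lower in Med23-deficient cells, and Ccr7, a chemokine receptor of naive and early T cells too, was called lower at WT stage 3. The macrophage and monocyte list had 6 genes with a row, the double-positive thymocyte list 8 and the erythroid list 1, and none was called in either comparison. Here too, rows that never passed 1 FPKM could not be called. They were 5 of the 7 macrophage and monocyte rows, 4 of the 8 thymocyte rows and the erythroid row. The macrophage and monocyte genes summed to 0.21 to 2.33 FPKM over the WT libraries and to 0.63 to 2.32 FPKM in Med23-deficient stage 2, and the thymocyte genes to 3 to 5.05 and 1.79 to 3.81 FPKM. The part of any such cells in the Ighm level was not tested.

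**Figure D2:**
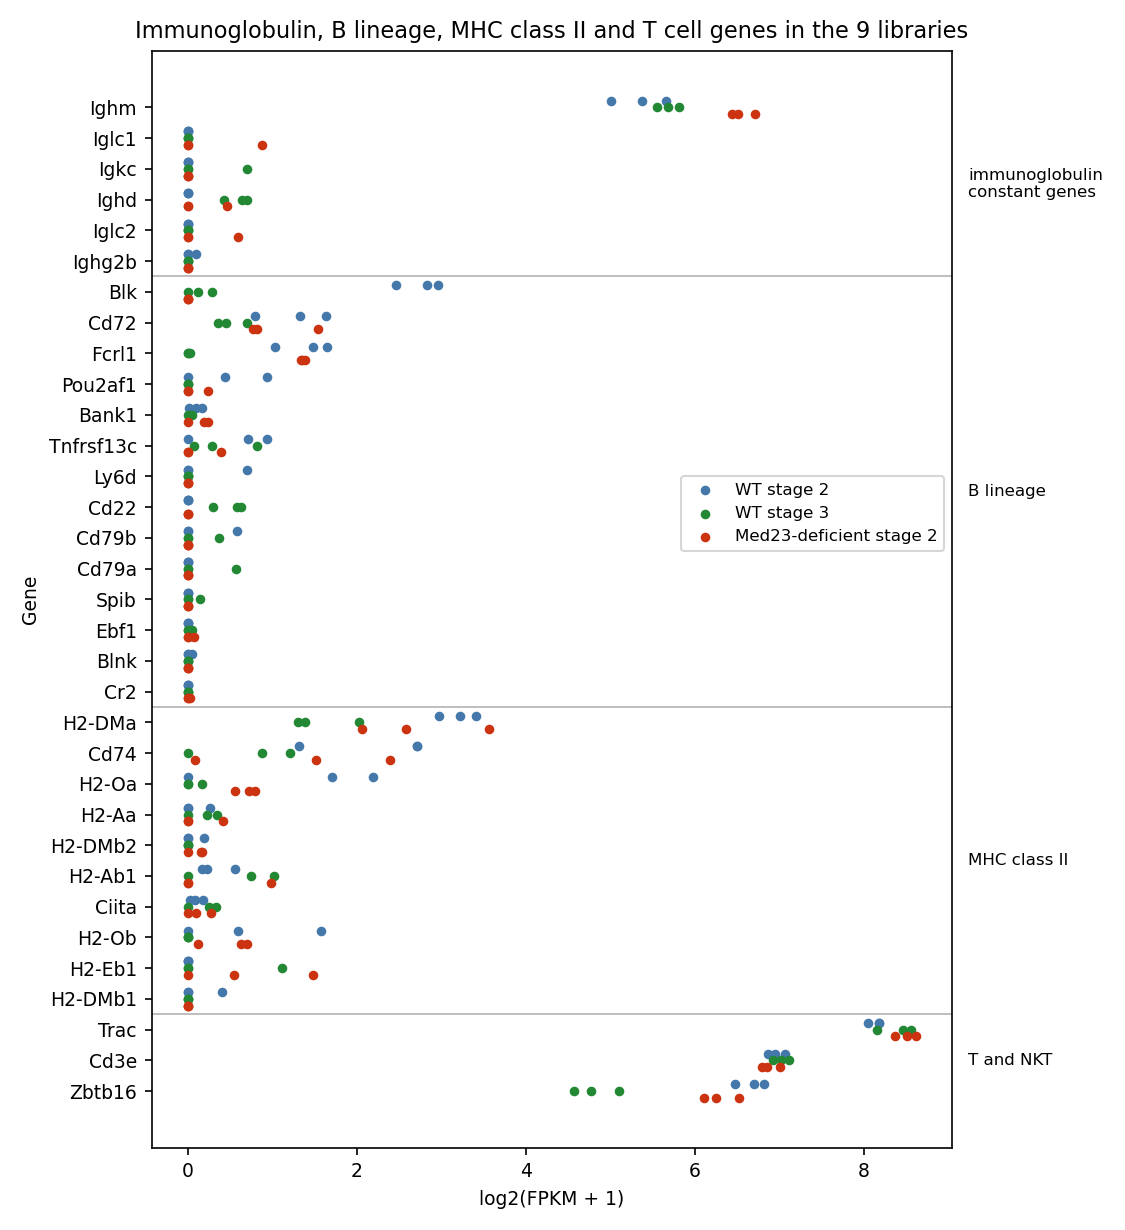
Levels in log2(FPKM + 1) of the immunoglobulin constant genes, the B lineage and MHC class II lists and 3 T and NKT cell genes, with 1 point per library coloured by group. Ighm lies near the T cell genes on the right, while the other 5 immunoglobulin constant genes do not pass 0.84 FPKM.

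The T and NKT cell list gave the scale of the changes between these groups. Of its 16 genes, Tbx21 and Klrb1c were called higher and Zbtb16, Cd5 and Cd4 lower at WT stage 3, against 3.6% of all genes. Thy1 and Klrb1c were called lower in Med23-deficient cells, against 2.11% of all genes. Klrb1c, which encodes the NK1.1 antigen by which the stages were sorted, stood at 4.6, 2.61 and 3.04 FPKM in Med23-deficient cells against 16.34, 26.24 and 7.65 in WT stage 2. Zbtb16, the PLZF factor that defines the NKT lineage, fell between the WT stages by 1.85 on the log2(FPKM + 1) scale. Trac and Cd3e were not called in either comparison.

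The next list held factors known to bind the enhancer of the mu intron, Cbfb, a partner that binds through Runx1, and the inhibitors Id1, Id2 and Id3, which do not bind DNA themselves. Of its 16 genes, 15 had a row, 11 of them above 1 FPKM in every library, and Spi1 had none in the table used here. At WT stage 3, 1 of the 15 was called, and in Med23-deficient cells none was called, against 3.6% and 2.11% of all genes. Counts this small do not set the list apart from all genes. The gene called was an inhibitor, Id3, which keeps E proteins off DNA, at 18.93, 14.18 and 23.17 FPKM in WT stage 2 and 1.75, 2.05 and 0.54 in WT stage 3. In Med23-deficient stage 2 it stood at 17.09, 10.69 and 8.12 FPKM. Its difference between the WT stages was -3.05 ± 0.32 (SE) on the log2(FPKM + 1) scale, with a limma adjusted p of 0.0188, which was 0.0439 to 0.0774 with any 1 library left out.

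The E protein genes Tcf3 and Tcf12, whose products bind the E boxes of the enhancer, lay at 15.04 to 21.44 and 5.86 to 9.16 FPKM. The octamer factor gene Pou2f1 ran from 1.55 to 4.83 FPKM, and Pou2f2, its lymphoid relative, from 0.43 to 1.12. Ets1 and Fli1, which bind ETS sites, stood at 50.50 to 85.52 and 28.25 to 40.74 FPKM. Id2, an inhibitor like Id3 and not a binding factor, was the most abundant gene of the list, and Ets1 was the most abundant binding factor by its mean in each group. Id2 stood at 258.60, 286.94 and 254.17 FPKM in WT stage 2, at 482.30, 412.64 and 404.29 in WT stage 3 and at 178.83, 221.23 and 214.76 in Med23-deficient stage 2. These 3 groups did not overlap, but neither difference reached a fold of 2.

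Around Ighm, 25 rows lay within 500 kb, of which 21 were no immunoglobulin genes. None of the rows tested was called in either comparison, against 3.6% and 2.11% of all genes. Only 10 of the 25 rows reached a group mean of 1 FPKM. Crip2 and Adam6b were listed at 0 in all WT libraries and were not tested between the WT stages. In that comparison Tex22 and Ighd passed the adjusted threshold (limma adjusted p of 0.0211 and 0.0473) with a fold below 2. Both were listed at 0 in every WT stage 2 library, which leaves no spread there. At WT stage 3 they stood at 0.50 to 0.59 and 0.34 to 0.62 FPKM, too low for a fold of 2 with a pseudocount of 1. None of the 25 rows stood above the lowest Ighm level in every library. Within the intron, the 4 models printed above summed to 1.54, 0.16 and 0 FPKM in WT stage 2, to 0.72, 0.58 and 0.08 in WT stage 3 and to 2.27, 0.71 and 0.47 in Med23-deficient stage 2. The groups overlapped.

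Ighj4, the joining segment nearest to the mu exons, was above 0 only in WT stage 2 replicate 2. It lies 5783 bases upstream of the CH1 exon. Across the window, 6 rows reached a group mean of 5 FPKM, which were Mta1, Brf1, Crip1, Pacs2 and Btbd6 on the 3' side and Gm9517 on the 5' side. Mta1, a chromatin remodelling subunit, lay between 24.82 and 33.71 FPKM over the 9 libraries. Brf1, a subunit of the RNA polymerase III initiation factor, lay between 20.15 and 34.23 FPKM. Pacs2, a sorting protein, lay between 5.27 and 10.52 FPKM, and its difference of 0.50 ± 0.16 (SE) on the log2(FPKM + 1) scale in Med23-deficient cells had a limma adjusted p of 0.387. Neither Mta1 nor Brf1 had a higher mean in Med23-deficient than in WT stage 2 cells.

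Btbd6, a BTB domain protein, stood at 2.63, 4.68 and 4.62 FPKM across WT stage 2, against 6.90, 7.92 and 6.57 in Med23-deficient stage 2, without overlap. Its difference was 0.73 ± 0.23 (SE) on the log2(FPKM + 1) scale, with a limma p of 0.0178 and an adjusted p of 0.365. Gm9517 stood at 2.42, 2.17 and 3.52 FPKM across WT stage 2, against 4.99, 3.60 and 7.15 in Med23-deficient stage 2, also without overlap. Its difference was 0.73 ± 0.29 (SE), with a limma p of 0.0420 and an adjusted p of 0.489. Pacs2 also did not overlap, at 5.27 to 6.73 FPKM in WT stage 2 against 8.17 to 10.52 in Med23-deficient stage 2. Nor did 4930427A07Rik, a protein-coding row on the 3' side, at 0.23 to 0.57 against 1.11 to 1.3 FPKM. Its difference was 0.70 ± 0.18 (SE), with a limma p of 0.00824 and an adjusted p of 0.267. Each of these rows was higher in Med23-deficient than in WT stage 2 cells, and each stayed below the fold of 2 that a call needed. In each of them the Med23-deficient values overlapped those of WT stage 3. Crip1, a small LIM domain protein, stood at 7.76 to 10.96 FPKM in WT stage 2, 10.63 to 18 in WT stage 3 and 6.13 to 10.62 in Med23-deficient stage 2.

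**Figure D3:**
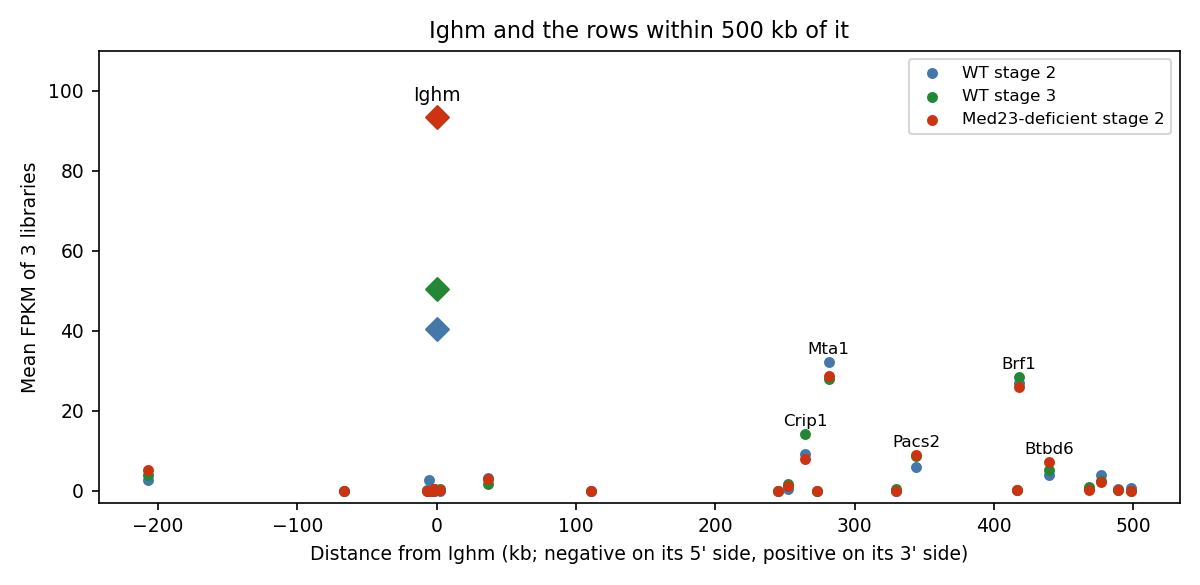
Mean FPKM of 3 libraries for Ighm (diamonds) and the 25 rows within 500 kb (circles), plotted by distance from Ighm in kb and coloured by group. The 3 Ighm means of 40.5, 50.4 and 93.4 FPKM stand above every neighbour, with Mta1 and Brf1 the next highest.

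The genes whose profile was most like that of Ighm were ranked by Pearson's r of log2(FPKM + 1) over the 9 libraries, among 11777 genes with a mean of at least 1 FPKM. The 9 points fall into 3 groups, so r largely reflects the group means, and it is given as a description. The 10 highest were Itih5, Wdr33, Tnfsf14, Fam102a, Arap2, Ajuba, Dusp6, Tnk2, Swap70 and Clstn1, with r from 0.97 down to 0.92. In all, 17 genes reached an r of 0.9, and 1525 genes had their group means in the order of those of Ighm.

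Itih5, which encodes a heavy chain of the inter-alpha-trypsin inhibitor family, was the most alike, with r = 0.97 and Spearman's rho = 0.98. It stood at 3.97, 4.82 and 4.27 FPKM in WT stage 2, at 5.60, 5.97 and 4.78 in WT stage 3 and at 9.15, 7.97 and 7.22 in Med23-deficient stage 2. Tnfsf14, the ligand LIGHT of the TNF superfamily, had r = 0.95 and rho = 0.87. It stood at 9.04, 12.98 and 14.08 FPKM in WT stage 2, at 17.66, 17.39 and 20.12 in WT stage 3 and at 33.78, 33.46 and 30.13 in Med23-deficient stage 2, so its WT stages did not overlap while those of Ighm did. Dusp6, a phosphatase of ERK kinases, had r = 0.93 and stood at 8.97 to 10.51 FPKM in Med23-deficient cells against 5.10 to 6.82 in WT stage 2. Swap70, a signalling protein first described in B cells, had r = 0.93 and stood at 12.75 to 15.04 FPKM against 7.63 to 8.76.

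The 5 genes with the lowest r were Hist1h2ae, Impad1, Trak1, Tcrg-C3 and Smox, with r from -0.98 to -0.93. Hist1h2ae, a replication-dependent histone H2A gene, stood at 27.30, 16.15 and 21.83 FPKM in WT stage 2, at 7.70, 11.29 and 8.82 in WT stage 3 and at 0.66, 1.58 and 1.57 in Med23-deficient stage 2. Tcrg-C3, a TCR gamma constant gene, was listed at 0 in all 3 Med23-deficient libraries and stood at 2.27 to 7.02 FPKM in the WT libraries.

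**Figure D4:**
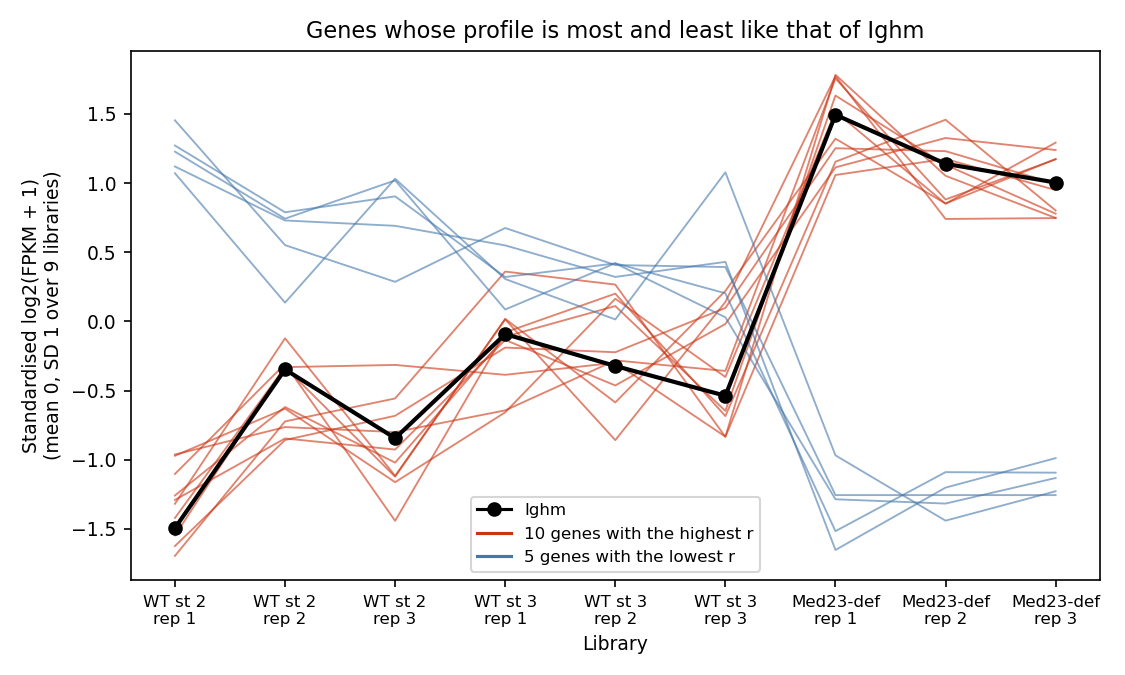
Profiles over the 9 libraries in log2(FPKM + 1), each standardised to mean 0 and SD 1, for Ighm (black), the 10 genes with the highest r (red) and the 5 with the lowest r (blue). The red profiles and Ighm peak in the 3 Med23-deficient libraries, where the blue ones are lowest.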

How the data were processed

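RNA from thymic iNKT cells was sequenced by the authors with a stranded total RNA kit for low input. Per the labels and the methods, reads were trimmed with Trimmomatic 0.36, aligned to mm10 with HISAT2 and quantified with StringTie on GENCODE genes, and the deposited values are FPKM per gene, rounded to 2 decimals. Groups came from the sample titles. Ighm and the gene lists were chosen with earlier results of these data known. FPKM were used as deposited, and other genes were tested with limma 3.58.1 in R 4.3.3 on log2(FPKM + 1) (pseudocount 1, trended eBayes, 2-sided) over the 6 libraries of a comparison, among genes above 0 in at least 1, with Benjamini-Hochberg adjustment over all of them; the fit was tested on simulated data. This fold scale understates changes of low genes. An exact permutation test of 3 against 3 cannot go below 0.1. Replicates were independent experiments per the methods, and p-values measure the spread between these libraries. Genes named were Ighm, list genes, rows within 500 kb, immunoglobulin rows above 0 in at least 3 libraries and the 10 most and 5 least correlated genes, with 2 unnamed gene models passed over. Sequences came from the GENCODE transcripts of GRCm38, both strands being searched for GAGCT with overlaps counted. Alternatives were other pseudocounts, a filter, other scalings, fit settings, a replicate block and leaving out libraries. Depth was unknown, so no counting interval was given.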

Additional observations from a re-analysis of the deposited data

How the results depend on the processing

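The Ighm difference kept its direction in all 15 alternatives of each comparison, which is a description, as Ighm was chosen from these values. The mean filter, the fit settings and the replicate block cannot change the difference. All Med23-deficient libraries lay above all WT stage 2 libraries, so leaving out 1 library could not reverse its direction there. On the log2 scale the Ighm difference ran from 0.23 to 0.42 at WT stage 3 and from 1.07 to 1.31 in Med23-deficient cells under other settings. With 1 library left out it ran from 0.16 to 0.49 and from 1.03 to 1.36. On the TPM scale the median of genes with a mean of at least 1 FPKM moved to -0.13 and -0.15, from -0.05 in both comparisons, and the Ighm differences were 0.23 and 1.07. The WT stages of Ighm came apart on the upper quartile scale and the ratio to Cd3e.

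Between the WT stages, the number of B lineage genes called was 4 with a pseudocount of 0.1 or 0.01, and 1 of these was higher at stage 3. The number was 1 among genes with a mean of at least 1 FPKM, against 2 as reported. The number of all genes called was 1423 and 1452 with these pseudocounts, against 745. In Med23-deficient cells it was 971 and 974, and 701 on the TPM scale without Gm23935, against 437. On the TPM scale, 88 of 339 calls were higher there, against 165 of 437. Leaving out a library gave 748 to 860 and 471 to 544 calls, with 2 and 1 B lineage genes called throughout.

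Counts at an adjusted p of at most 0.05 were less stable than these. Against 346 and 44 as reported, they were 22 to 137 and 1 to 8 with a library left out, 600 and 162 with all 9 libraries in the fit and 219 and 28 on the TPM scale. Same-numbered libraries correlated by 0.0043 to 0.272 in their deviations from the group means. The 3 of 9 pairs that passed 0.1 were those of replicate 3, at 0.161, 0.144 and 0.272. Replicate 3 correlated with replicates 1 and 2 of the other groups by -0.175 to -0.0384. Deviations within a group sum to 0, so negative values there follow from the positive ones and add no separate evidence. By the positive correlations, the replicate 3 libraries shared a part of their deviations across groups. The fits as reported did not model this, and its cause was not tested. With a replicate block, the Ighm differences were 0.33 and 1.20, which the balanced design fixes in advance. The B lineage calls were 2 and 1, 758 and 453 genes were called, and 19 and 0 passed the adjusted threshold.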
